A study of Mus musculus with 48 samples.

Results

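Microglia and macrophage genes were followed in 2 tissues of mice by 10 genes taken from the 25229 symbols of the count table by name: Cx3cr1, P2ry12, Tmem119, Csf1r, C1qa, C1qb, Aif1, Cd68, Mrc1 and Cd163. All mice were male C57Bl/6J animals with floxed alleles of both Nr1d1 and Nr1d2 (Rev-erba and Rev-erbb), kept at 27 degrees C with 12 h of light and 12 h of darkness and chow at will. At 6 to 10 weeks of age they received AAV8-TBG-EGFP (Control) or AAV8-TBG-Cre (HepDKO) by tail vein. TBG is a hepatocyte promoter, so the deletion was directed at the liver and both groups carried the floxed alleles in the tissues sequenced. Tissue was taken 2 to 4 weeks later, at 10 to 12 weeks of age, at 4, 10, 16 and 22 h after the lights came on (zeitgeber time, ZT). Arcuate nucleus micropunches (pools of 3 mice per the sample labels) and left nodose ganglia (pools of 4 mice) gave 3 libraries in each of 16 groups, or 24 per tissue and 48 in all. Arcuate libraries were made by a company and nodose libraries with a ribosomal RNA depletion kit, so a tissue difference cannot be told apart from one of preparation. Nothing in the labels ties a library to one animal, and p-values measure the spread between these pools.

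Microglia are the resident macrophages of the brain and are kept alive by signals through the receptor that Csf1r encodes. They are known for Cx3cr1 (the receptor of the neuronal chemokine fractalkine), P2ry12 (a purine receptor of their processes) and Tmem119 (a membrane protein), while macrophages at brain borders and in peripheral nerves are known for the scavenger receptors encoded by Mrc1 (the mannose receptor CD206) and Cd163 (the haptoglobin-haemoglobin receptor). C1qa and C1qb (chains of complement C1q), Aif1 (the calcium-binding protein IBA1) and Cd68 (a lysosomal glycoprotein) are shared by both kinds of cell. In bulk tissue, fewer cells of a type and less RNA per cell cannot be told apart.

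The sequences before the start sites of 4 of these genes are shown because their levels differed most between the tissues (Mrc1 and Cd163), mark microglia (P2ry12) or moved with the time of day (Cx3cr1). They are the 250 bases before the RefSeq start site on GRCm38.p6, written 5′ to 3′ on the gene's strand: chr2:14229164-14229413 on the plus strand for Mrc1, chr6:124304401-124304650 on the plus strand for Cd163, chr3:59262986-59263235 on the minus strand for P2ry12 and chr9:120068297-120068546 on the minus strand for Cx3cr1. Capitals mark matches on either strand to GAGGAA (the core bound by the myeloid factor that Spi1 encodes), CACGTG (the E-box of the clock activators) or AGGTCA (the core bound by nuclear receptors such as those of Nr1d1 and Nr1d2).
Mrc1: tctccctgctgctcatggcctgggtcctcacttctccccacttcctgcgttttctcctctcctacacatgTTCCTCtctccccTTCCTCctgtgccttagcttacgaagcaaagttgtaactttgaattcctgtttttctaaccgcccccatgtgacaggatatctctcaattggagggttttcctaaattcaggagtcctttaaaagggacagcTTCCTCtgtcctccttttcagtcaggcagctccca
Cd163: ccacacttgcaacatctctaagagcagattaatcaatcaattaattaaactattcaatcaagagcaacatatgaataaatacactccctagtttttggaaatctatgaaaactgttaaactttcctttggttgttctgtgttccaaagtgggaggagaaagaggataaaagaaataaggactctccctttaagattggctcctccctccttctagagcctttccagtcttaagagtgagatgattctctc
P2ry12: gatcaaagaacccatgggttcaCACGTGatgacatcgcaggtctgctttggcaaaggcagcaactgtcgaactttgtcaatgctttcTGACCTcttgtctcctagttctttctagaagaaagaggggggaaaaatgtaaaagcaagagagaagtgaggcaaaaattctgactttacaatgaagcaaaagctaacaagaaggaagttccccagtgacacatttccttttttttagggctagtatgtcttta
Cx3cr1: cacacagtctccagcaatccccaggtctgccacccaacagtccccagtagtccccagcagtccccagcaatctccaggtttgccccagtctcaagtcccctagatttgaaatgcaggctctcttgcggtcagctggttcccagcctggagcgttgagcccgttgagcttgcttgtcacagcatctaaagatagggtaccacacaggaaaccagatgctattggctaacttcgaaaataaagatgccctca

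GAGGAA matched the Mrc1 window at 3 positions, -180, -167 and -35 from the start site, all on the minus strand. It matched no base of the Cd163, P2ry12 or Cx3cr1 windows. The P2ry12 window held CACGTG at -228 and AGGTCA on the minus strand at -163. Of the 7 genes with a RefSeq window (these 4, C1qb, Aif1 and Cd68), 4 held GAGGAA, 1 held CACGTG and 2 held AGGTCA. Of 32851 RefSeq windows of that length, 23.3% held GAGGAA, 6.02% held CACGTG and 14.0% held AGGTCA. The longer GAGGAAGT, which contains GAGGAA, was in none of the 7 and in 2.44% of all windows. A match is a run of letters, not a site shown to be bound. Tmem119, C1qa and Csf1r had no entry.

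In the GENCODE annotation of the mm10 build (GRCm38), Mrc1 spans 14229392 to 14332057 of chromosome 2 on the plus strand in 30 exon blocks, and Cd163 spans 124304656 to 124330527 of chromosome 6 on the plus strand in 17. P2ry12 (chromosome 3, 59216272 to 59262871, minus strand, 5 exon blocks) lies within Med12l on the opposite strand and shares 0 exon bases with it. Cx3cr1 (chromosome 9, 119901616 to 120069879, minus strand, 4 exon blocks) shares 78 exon bases with the antisense gene Gm33858. Csf1r shares 873 exon bases with Hmgxb3 on the opposite strand. Whether the authors' counting used strand is not given in the sources used here, so reads in such overlaps may be assigned to either gene.

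Arcuate libraries held 15483922 to 20399718 counts (median 17324244) and nodose libraries 1813994 to 10422914 (median 6641665), so nodose values carry the larger counting error. Markers of the labelled tissues were checked first. The 8 neuron markers (among them Snap25, Syt1, Rbfox3, Tubb3, Stmn2, Slc17a6 and Prph) summed to 2597 to 3225 CPM (a gene's counts per 1000000 counts of the library, scaled by TMM factors found within each tissue) in arcuate, but only to 16.7 to 73.6 CPM in the libraries labelled nodose, where Snap25 was at a median of 6.94 CPM (952 CPM in arcuate) and Prph, a peripheral neuron filament gene, at 2.58 CPM. The nodose libraries instead held 15161 to 40585 CPM of 5 Schwann cell markers, 3436 to 66191 CPM of 5 skeletal muscle markers and 139 to 1409 CPM of 5 adipocyte markers. In arcuate the Schwann sum was 1165 to 2291 CPM, much of it Mbp, which oligodendrocytes share, and muscle and adipocyte sums were at most 34.0 and 0.685 CPM. What follows for nodose therefore describes ganglion tissue as dissected, rich in nerve sheath and muscle RNA, and not its neurons. All 10 genes passed the filter on low counts in both tissues.

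The scavenger receptor genes separated the tissues most. Mrc1 was at 1.98, 4.37 and 8.65 CPM (lowest, median and highest of 24 libraries) in arcuate and at 67.7, 87.5 and 135 CPM in nodose. Cd163 was at 1.86, 2.95 and 4.10 CPM in arcuate and at 44.2, 64.4 and 118 CPM in nodose. For neither gene did the ranges overlap. In the edgeR fit over all 48 libraries, Mrc1 was higher in nodose by 4.55 on the log2 scale (SE 0.0916, adjusted p = 4.78e-35) and Cd163 by 4.67 (SE 0.0937, adjusted p = 1.52e-35).

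The 3 microglial receptor and membrane protein genes went the other way. Cx3cr1 was at 28.7, 34.8 and 40.0 CPM in arcuate and at 8.94, 16.8 and 29.9 CPM in nodose, a log2 difference of -0.87 (SE 0.0642, adjusted p = 2.98e-16). P2ry12 was at 13.1, 17.3 and 21.5 CPM in arcuate and at 1.78, 8.94 and 16.7 CPM in nodose, a log2 difference of -0.74 (SE 0.0977, adjusted p = 4.69e-09). Tmem119 was at 10.7, 13.3 and 16.6 CPM in arcuate and at 3.85, 9.35 and 15.0 CPM in nodose, a log2 difference of -0.38 (SE 0.0689, adjusted p = 2.90e-06). The ranges of the tissues overlapped for all 3 genes, Cx3cr1 by the 1 nodose library at 29.9 CPM. All 3 remained detectable in nodose, with medians of 94, 53.5 and 56 counts per library for Cx3cr1, P2ry12 and Tmem119.

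The genes that both kinds of macrophage share differed by less than 0.4 on the log2 scale, apart from Cd68. Csf1r was at 45.5, 65.4 and 72.9 CPM in arcuate and 61.7, 73.0 and 104 CPM in nodose (log2 difference 0.37, adjusted p = 1.53e-09), and C1qa and C1qb were higher in nodose by 0.36 each (adjusted p = 1.99e-07 and 6.22e-07). Cd68 was at 2.52, 4.08 and 5.31 CPM in arcuate and 4.91, 9.68 and 15.4 CPM in nodose (log2 difference 1.45, SE 0.0824, adjusted p = 3.75e-20). Aif1, at medians of 3.00 and 2.73 CPM, did not pass (log2 difference 0.06, 95% interval -0.14 to 0.25, adjusted p = 0.576).

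**Figure D1:**
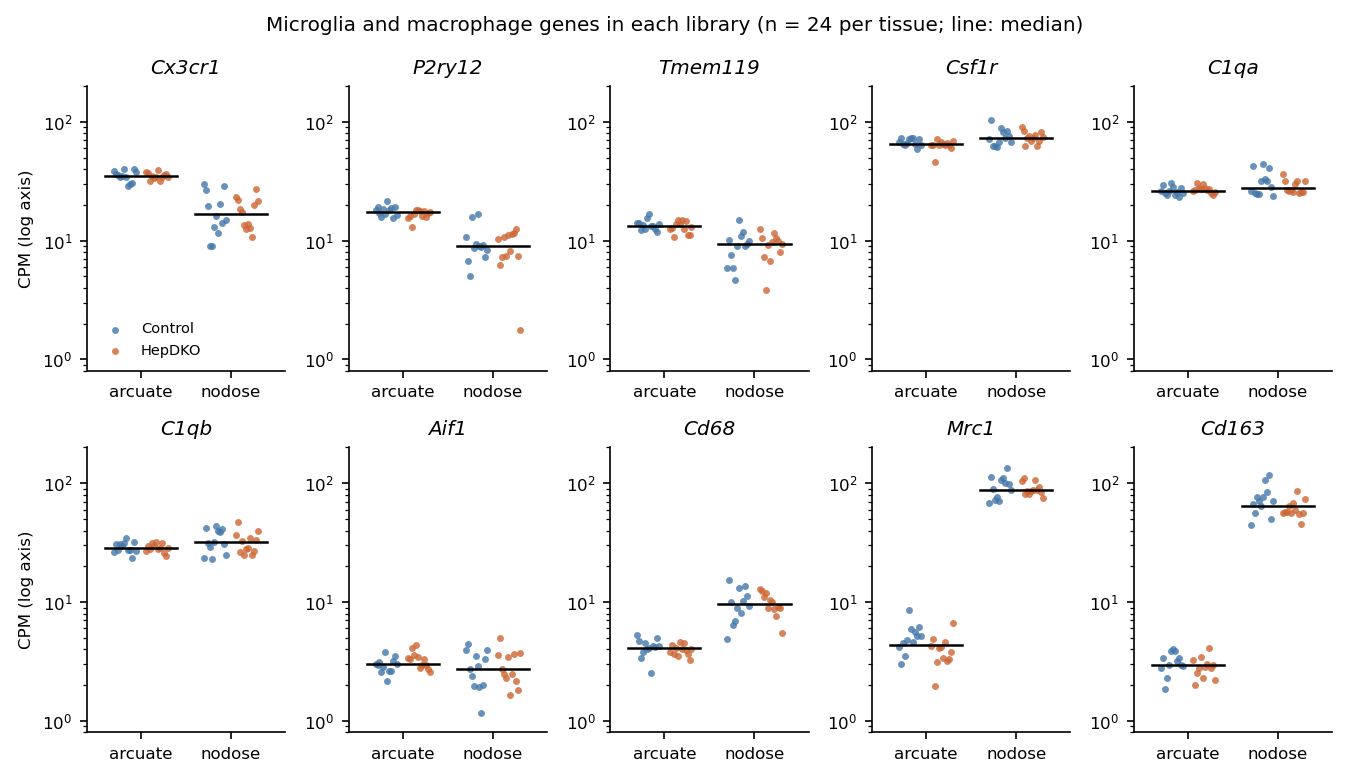
Level in CPM (log axis) of each of the 10 genes in every arcuate and nodose library, 24 per tissue, coloured by genotype, with a line at each tissue's median. Mrc1 and Cd163 form separate clouds by tissue (medians 4.37 and 87.5 CPM for Mrc1), Cx3cr1, P2ry12 and Tmem119 sit lower in nodose with wider spread, and Control and HepDKO points are mixed throughout.

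In sum 9 of the 10 genes passed, 6 higher in nodose and 3 lower, but 16101 of 17478 genes tested (92.1%) passed too, with 45.6% of all genes tested higher and 46.6% lower in nodose, so a call as such says little here and the sizes carry the description. The 10 genes were also chosen with the tissue difference known, so their p-values for it are no independent support. The median log2 difference was 0.36 over the 10 genes and -0.01 over all genes tested. With scaling by total counts in place of TMM factors, the median over all genes was -0.20 and the 10 genes shifted with it, which left 9 called in the same directions and put Aif1 at -0.13.

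**Figure D2:**
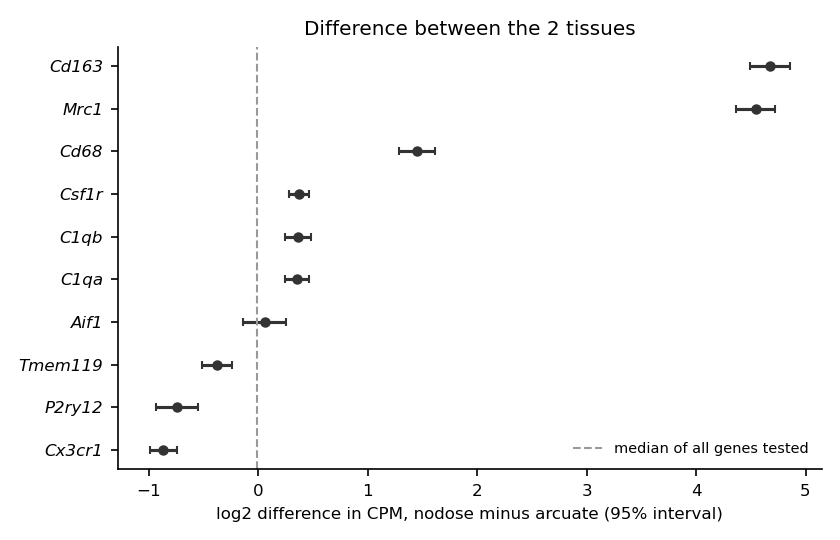
Fitted log2 difference in level (nodose minus arcuate) of the 10 genes with 95% intervals, n = 24 libraries per tissue, and a dashed line at the median of all genes tested (-0.01). Cd163 and Mrc1 lie beyond 4 on the log2 scale, Cd68 near 1.45, and Cx3cr1, P2ry12 and Tmem119 below 0.

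Levels per kilobase of exon put the genes in a different order in each tissue. In arcuate, C1qb (26.5 ± 2.39 CPM per kb, SD, n = 24) and C1qa (25.6 ± 1.96) were highest and did not differ beyond their spread. Csf1r (13.4 ± 1.19) followed, then Cx3cr1 (7.77 ± 0.667), P2ry12 (7.08 ± 0.677) and Tmem119 (5.94 ± 0.634), and the ranges of Cx3cr1 and P2ry12 and of P2ry12 and Tmem119 overlapped, while those of Csf1r and Cx3cr1 and of Tmem119 and Cd68 did not. Cd68 (3.24 ± 0.471) and Aif1 (3.10 ± 0.501) lay together, and Mrc1 (0.845 ± 0.263) and Cd163 (0.666 ± 0.137) came last, also within their spread. In nodose, C1qb (30.1 ± 6.46) and C1qa (28.8 ± 5.62) were again highest. Mrc1 (17.2 ± 3.01), Csf1r (15.3 ± 2.15) and Cd163 (15.1 ± 3.95) came next and overlapped one another, ahead of Cd68 (7.80 ± 2.07). Tmem119 (4.05 ± 1.14), Cx3cr1 (3.94 ± 1.39), P2ry12 (3.78 ± 1.31) and Aif1 (2.86 ± 0.959) closed the order and did not differ beyond their spread.

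Set against Csf1r in the same library, which needs no scaling between libraries, the tissues showed the same split. Per 100 Csf1r counts, arcuate libraries held medians of 53.2 Cx3cr1, 26.5 P2ry12 and 20.2 Tmem119 counts, against 23.0, 11.9 and 12.4 in nodose. C1qa (39.7 and 40.1) and C1qb (43.2 and 41.9) were alike in both tissues. On that scale Mrc1 was at 6.56 in arcuate and 126 in nodose, Cd163 at 4.62 and 88.6, and Cd68 at 6.09 and 13.8. These are medians over 24 libraries, given as a description without a test, and the genes were chosen with the tissue difference known. The log2 ratio of summed Mrc1 and Cd163 counts to summed P2ry12 and Tmem119 counts ran from -2.40 to -1.36 in arcuate (median -2.06, SD 0.26) and from 2.53 to 3.79 in nodose (median 3.14, SD 0.34). The median ratio on the linear scale was 0.239 in arcuate and 8.81 in nodose. In nodose P2ry12, part of the divisor, varied with platelet genes, as given further on, and their part in the ratio was not tested.

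**Figure D3:**
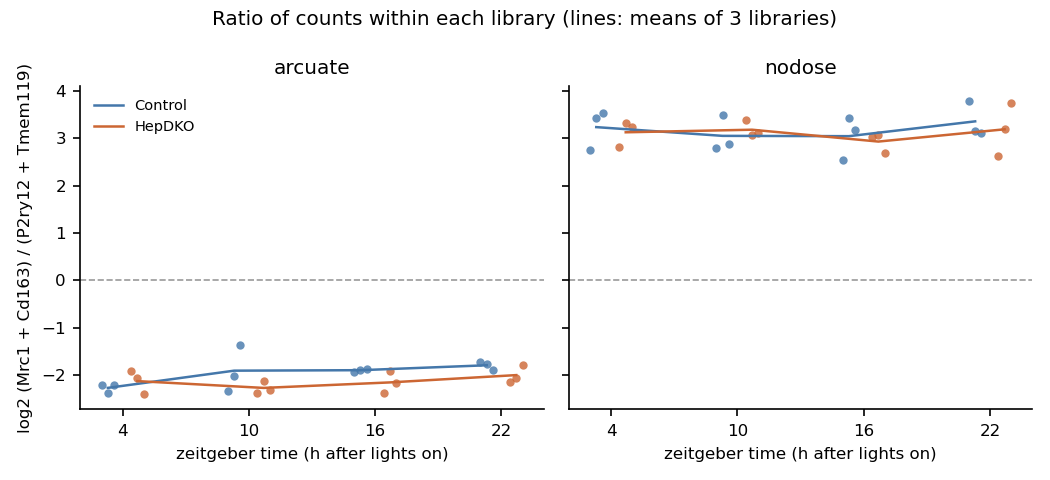
Log2 ratio of summed Mrc1 and Cd163 counts to summed P2ry12 and Tmem119 counts in each library, by zeitgeber time and genotype, with lines through the means of 3 libraries. Every arcuate library lies below 0 and every nodose library above 0, with medians of -2.06 and 3.14, and within arcuate the 3 Control ZT4 libraries (-2.38 to -2.21) lie below those of Control ZT16 (-1.93 to -1.86) and ZT22 (-1.89 to -1.71), while the HepDKO libraries of these times overlap (-2.40 to -1.91, -2.38 to -1.92 and -2.14 to -1.78), with no test made of either.

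Other genes of the same cell types came from lists made with earlier results of these data known. A gene that passed the filter on low counts only through the tissue where it is high had to differ, so directions are counted over the genes that passed it in each tissue alone. Of 12 other microglia genes, 9 did so: 5 were lower in nodose, 3 were higher and 1 (Fcrls, log2 difference 0.03, adjusted p = 0.70) did not pass the test, with a median of -0.80. The lectin gene Siglech fell by 2.15 from arcuate to nodose (medians 10.7 and 2.01 CPM). The 3 higher in nodose were Olfml3 (2.46), P2ry6 (2.07) and Csf3r (1.29), the last a receptor gene also used by neutrophils. The other 3 genes passed the filter through arcuate only: Sall1 and Sall3, transcription factor genes, and Slc2a5, a fructose transporter gene, were at medians of 20.9, 12.5 and 4.02 CPM in arcuate and of 0 in nodose, where Sall3 was listed at 0 in every library. Of 16 other border and tissue macrophage genes, 9 passed the filter in each tissue and all 9 were higher in nodose, with a median of 4.22. They included F13a1 (clotting factor XIII, 2.37 and 85.5 CPM), the hyaluronan receptor gene Lyve1 (0.898 and 20.8 CPM), Stab1 (13.6 and 116 CPM) and the lectin gene Mgl2 (0.439 and 17.7 CPM). The other 7 did not pass the filter in arcuate, where their medians were at most 0.348 CPM, and no direction is counted for them. The summed level of the 16 genes ranged from 15.98 to 30.3 CPM in arcuate and from 235 to 430 CPM in nodose.

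Counts in the lists that follow stand beside 45.6% of all genes tested higher and 46.6% lower in nodose. Of 18 shared myeloid genes, 15 were higher in nodose, 2 (Ctss, log2 difference -0.79, and Trem2, -1.43) were lower, and Fcgr1 did not pass (0.14, adjusted p = 0.28). The largest were Runx1 (4.70), Lyz2 (4.24), Ptprc (3.66) and Adgre1 (2.68). The antigen presentation genes were higher in nodose in 9 of 10 cases, with Cd74 at medians of 7.05 and 169 CPM, H2-Aa at 3.27 and 76.8 CPM, H2-Eb1 at 3.24 and 72.3 CPM and H2-DMb1 at 1.41 and 27.2 CPM, and Cd40 did not pass (0.33, adjusted p = 0.0869). Of 18 activation genes, 10 passed the filter in each tissue and all 10 were higher in nodose, among them Lpl (7.29) and Spp1 (4.24). Lpl is also an adipocyte gene, and its source was not tested. Among ligand genes, Cx3cl1, which encodes fractalkine and is made by neurons, was at medians of 286 CPM in arcuate and 5.01 CPM in nodose (log2 difference -5.58). Csf1 (0.47) and Il34 (0.34), both ligands of the Csf1r receptor, were higher in nodose. Tgfb1 (2.55), higher in nodose, and Tgfb2 (-0.55), lower, encode TGF-beta ligands, which bind receptors outside the 10 genes.

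As levels only, 10 monocyte and neutrophil markers summed to 22.1 to 122 CPM in nodose and 1.80 to 8.76 CPM in arcuate, and 9 lymphocyte markers to 7.30 to 34.5 CPM and 0.495 to 1.94 CPM. Few of these genes passed the filter in each tissue (2 of 10 and 0 of 9, and 3 of 6 dendritic and 1 of 6 mast cell markers), so no direction is drawn from them. Ly6g, a defining neutrophil marker, was at a median of 0 in both tissues. The part of such cells in the levels of the 10 genes was not tested.

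Over the day, Cx3cr1 in nodose was the 1 gene of the 10 that passed. At ZT4 it was at 29.9, 26.7 and 19.6 CPM in Control and at 23.4, 22.1 and 18.6 CPM in HepDKO. At ZT10 it was at 8.94, 8.94 and 12.9 CPM in Control and at 17.5, 13.4 and 12.4 CPM in HepDKO. No library at ZT10 reached the lowest library at ZT4, in either genotype, and with plain library totals in place of TMM factors the ZT10 libraries also stayed below those of ZT4 (at most 15.3 against at least 16.3 CPM). At ZT16 they were 16.1, 11.7 and 20.2 CPM in Control and 13.8, 12.7 and 10.8 CPM in HepDKO, and at ZT22 14.0, 28.6 and 14.8 CPM and 20.1, 27.4 and 21.6 CPM. The ZT22 libraries overlapped those of ZT4 and, in Control, those of ZT16. The 24-h component, tested jointly on the ZT4 to ZT16 and the ZT10 to ZT22 differences averaged over genotypes, had an amplitude of 0.54 from mean to peak on the log2 scale and a peak at ZT0.85 (n = 24, p = 2.66e-05, adjusted p = 0.00731), and ranked 54 of 14867 genes by p. Of all nodose genes tested, 198 (1.33%) passed, and of the 10 genes 1 did.

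In arcuate, Cx3cr1 was flat within its spread, with medians of 36.5, 34.5, 33.2 and 35.8 CPM in time order from ZT4 to ZT22 (6 libraries each), an amplitude of 0.07 and an adjusted p of 0.411. The difference between the tissues in the 24-h component itself passed for Cx3cr1, with an amplitude of 0.47 (n = 48, p = 3.11e-05, adjusted p = 0.0101), where 169 genes of 17478 (0.967%) passed. The difference between Control and HepDKO in the nodose rhythm did not pass (amplitude 0.12, adjusted p = 0.986). Per 100 Csf1r counts, nodose Cx3cr1 had medians of 28.2, 17.9, 17.7 and 29.1 in time order. Whether these 2 genes come from the same cells in nodose was not tested, and their r within groups was 0.30.

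**Figure D4:**
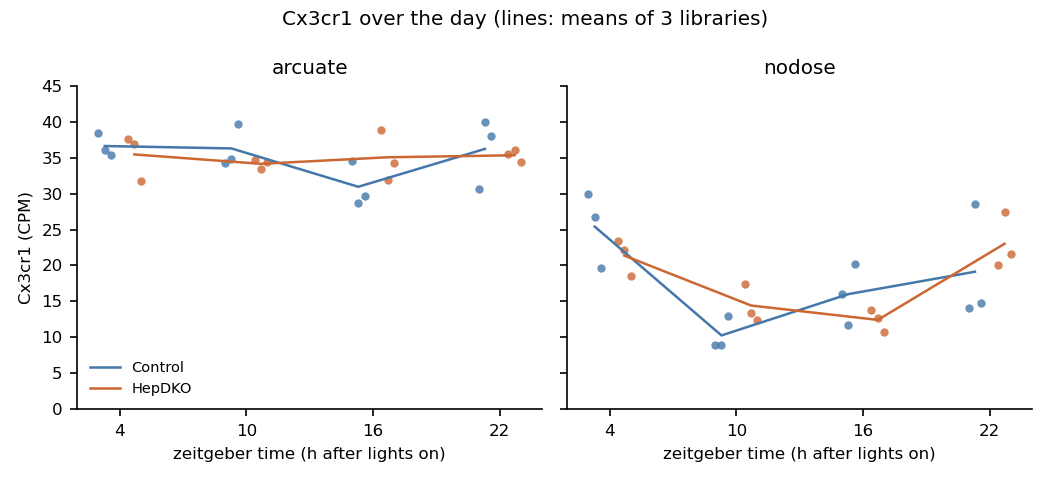
Cx3cr1 in CPM in each arcuate and nodose library against zeitgeber time (h), coloured by genotype, with lines through the means of 3 libraries. Nodose libraries run from 18.6 to 29.9 CPM at ZT4 and from 8.94 to 17.5 CPM at ZT10, while arcuate libraries stay between 28.7 and 40.0 CPM at all times.

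Median marker sums of other cell types also varied between time points in nodose, with no marker that passed. The summed adipocyte markers had medians of 425, 910, 812 and 458 CPM in time order (range over all libraries 139 to 1409 CPM), opposite to Cx3cr1, and none of the 5 passed (lowest adjusted p = 0.0746, Lep). The summed muscle markers were highest at ZT10 (median 34535 CPM, against 24599 to 26979 CPM at the other times). With the muscle and adipocyte scores as covariates, the Cx3cr1 amplitude was 0.41 (adjusted p = 0.0474). The summed monocyte and neutrophil markers had medians of 54.7, 35.1, 39.2 and 47.4 CPM at ZT4, ZT10, ZT16 and ZT22. Among the 6 such markers tested 0 passed, and the neutrophil granule genes S100a8, S100a9 and Ngp had adjusted p of 0.299, 0.312 and 0.263. Cx3cr1 is also made by patrolling monocytes and some lymphocytes, and their part in its nodose pattern was not tested.

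The other 9 genes did not pass in nodose. Tmem119 was at 5.89, 8.81 and 12.5 CPM (lowest, median and highest of 6 libraries) at ZT4, 3.85, 6.29 and 9.13 CPM at ZT10, 9.75, 11.3 and 15.0 CPM at ZT16 and 8.06, 9.35 and 9.90 CPM at ZT22. Its ZT10 and ZT16 libraries did not overlap, and its 24-h amplitude was 0.30 (n = 24, p = 0.0171, adjusted p = 0.263). Cd163 had medians of 56.3, 66.7, 80.9 and 63.7 CPM at the same times (amplitude 0.23, n = 24, p = 0.0468, adjusted p = 0.380), with a fitted peak at ZT16.3, and P2ry12 had medians of 6.98, 10.0, 10.2 and 7.91 CPM (amplitude 0.34, adjusted p = 0.492). The genes thus had different fitted peaks, ZT0.85 for Cx3cr1, ZT19.6 for Tmem119, ZT13.6 for P2ry12 and ZT16.3 for Cd163, of which only the first rests on a call. The remaining amplitudes in nodose ran from 0.07 for C1qa to 0.33 for Aif1, and the median over the 10 genes was 0.18, beside 0.12 over all genes tested.

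In arcuate, 0 of the 10 genes passed for the 24-h rhythm with edgeR or with DESeq2, where edgeR passed 622 of 16102 genes (3.86%). Unadjusted p-values under 0.05 (n = 24 libraries) were found for 3 of the 10, beside 21.6% of all genes: Tmem119 (amplitude 0.13, peak ZT12.5, p = 0.0157), C1qb (0.11, ZT11.3, p = 0.0187) and Aif1 (0.17, ZT6.4, p = 0.0460). Without Control ZT22 replicate 2, C1qb passed (amplitude 0.14, adjusted p = 0.0471). The median amplitude was 0.09 over the 10 genes and 0.07 over all genes. Of the other lists, 0 of 12 microglia genes and 0 of 18 shared myeloid genes passed in arcuate, and 1 of the 9 border macrophage genes tested did: F13a1, with an amplitude of 0.50, a peak at ZT15.8 and an adjusted p of 0.0200. In nodose F13a1 had an amplitude of 0.23 with a peak at ZT18.0 (adjusted p = 0.27), and none of the 9 microglia, 14 border macrophage or 18 shared myeloid genes tested passed there.

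Between genotypes, no gene of the 10 passed in either tissue, over all time points or at any one. The background was the same: edgeR passed 0 genes (0%) in each of these 10 tests, in both tests of a genotype difference in rhythm and in the test of a tissue difference in genotype effect. DESeq2 also passed 0 of the 10 genes in each of these tests. Over all genes it passed 23 for the arcuate effect over all time points, 5 for arcuate at ZT4, 1 for the arcuate difference in rhythm, 3 for the nodose effect over all time points, 13 for the tissue difference in genotype effect and 0 in the other tests. The share of all genes with an unadjusted p under 0.05 ran from 2.04% to 11.9%. In arcuate over all time points, 2 of the 10 genes had an unadjusted p under 0.05, beside 8.61% of all genes. Mrc1 was at 3.02, 4.96 and 8.65 CPM (lowest, median and highest of 12) in Control and at 1.98, 3.96 and 6.65 CPM in HepDKO (log2 difference HepDKO minus Control -0.36, SE 0.157, n = 12 per genotype, p = 0.0313, adjusted p = 0.528). P2ry12 was at 15.6, 18.1 and 21.5 CPM in Control and at 13.1, 17.0 and 18.1 CPM in HepDKO (-0.11, SE 0.0507, n = 12 per genotype, p = 0.0479, adjusted p = 0.575). For both genes the ranges of the genotypes overlapped. The 95% intervals of the other 8 genes ran from -0.37 at the lowest (Cd163) to 0.33 at the highest (Aif1).

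At single times, the lowest p among the 10 genes in arcuate was that of P2ry12 at ZT4, with 18.2, 19.3 and 17.1 CPM in Control and 15.6, 16.2 and 13.1 CPM in HepDKO (log2 difference -0.28, SE 0.101, adjusted p = 0.346). The groups did not overlap, but 11.9% of all genes had an unadjusted p under 0.05 in that test. HepDKO ZT4 replicate 3, which also held the lowest Csf1r of all arcuate libraries (45.5 CPM), was the lowest of them, and without it the difference was -0.19 (adjusted p = 0.979). Csf1r at ZT4 was the other of the 2 genes with an unadjusted p under 0.05 there (-0.24, SE 0.0949, adjusted p = 0.348). It was at 67.8, 72.5 and 64.7 CPM in Control and at 63.9, 63.6 and 45.5 CPM in HepDKO, the last in replicate 3. At ZT10, ZT16 and ZT22 the arcuate differences with the lowest p were those of Mrc1 (-0.57, SE 0.311), Cx3cr1 (0.18, SE 0.0955) and Cd68 (-0.29, SE 0.195), and none of the 10 genes was under 0.05 unadjusted. The Mrc1 difference at ZT10 was -0.13 without Control ZT10 replicate 3.

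In nodose over all time points, Cd163 was at 44.2, 70.8 and 118 CPM in Control and at 45.6, 57.2 and 86.9 CPM in HepDKO (log2 difference -0.26, SE 0.120, n = 12 per genotype, p = 0.0454, adjusted p = 1.00), again with overlapping ranges. The other 9 genes lay between -0.14 and 0.05, with 95% intervals that reached -0.50 and 0.44. At ZT16, C1qb was at 44.1, 39.5 and 39.0 CPM in Control and at 28.8, 34.6 and 25.01 CPM in HepDKO (-0.48, SE 0.221, adjusted p = 0.844). These groups did not overlap, and 4.94% of all genes had an unadjusted p under 0.05. In that test 9 of the 10 genes had negative differences, with a median of -0.25 beside 0.01 over all genes. Such tallies varied from test to test: in arcuate 8, 4, 6 and 10 of the 10 genes were negative from ZT4 to ZT22, and in nodose 2, 3, 9 and 8. At ZT22, Mrc1 (-0.34, SE 0.167) and Cd68 (-0.55, SE 0.273) had the lowest p, both with an adjusted p of 0.877. At ZT4 and ZT10 they were Tmem119 (0.32, SE 0.283) and Cx3cr1 (0.48, SE 0.263), and at these 3 times none of the 10 genes was under 0.05 unadjusted. Of the 19 other gene lists, none had a gene that passed a genotype test in either tissue.

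Within each tissue the genes varied together to different degrees. After removal of group means, the median Pearson r of log2 CPM over the 45 pairs of genes was 0.32 in arcuate and 0.20 in nodose (n = 24 libraries each, which share depth and composition, so these are descriptions). The closest pairs in arcuate were P2ry12 with Csf1r (0.65), Cx3cr1 with P2ry12 (0.64) and C1qa with C1qb (0.63). In nodose they were Csf1r with C1qa (0.84), C1qa with C1qb (0.77) and Cd68 with Mrc1 (0.72), while Cx3cr1 had r = -0.48 with Cd163, r = 0.04 with Tmem119 and r = 0.02 with P2ry12. The trio of microglial genes had r of 0.47 to 0.64 between its members in arcuate and of -0.02 to 0.04 in nodose.

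The genes most like P2ry12 across libraries differed by tissue. In arcuate those with the highest r included Timm22 (0.84), Slc2a12 (0.82), Fam174b (0.80) and Tmem19 (0.80). In nodose the 5 highest were Ythdf2 (0.90), the clotting factor gene F5 (0.89), Plek (0.88), Ifnar2 (0.88) and the platelet chemokine gene Ppbp (0.88). For Mrc1 they were Arhgap29 (0.88), Irf8 (0.83), Eif2ak1 (0.83), Pros1 (0.83) and Cybb (0.79) in arcuate, and Sfrp1 (0.85), Fam102b (0.83), Fcrls (0.83), Prss23 (0.82) and S100a10 (0.82) in nodose. Each r is over 24 libraries and comes without a test.

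P2ry12 is also the platelet receptor that antiplatelet drugs block, and after these values were seen a list of 12 platelet and megakaryocyte genes was added (among them Ppbp, Pf4, Itga2b, Gp1ba, Gp1bb, Gp9, Gp5, Gp6, Treml1, Tubb1 and Alox12, of which Pf4 is on the border macrophage list too). Their summed level was 62.5, 112 and 238 CPM (lowest, median and highest) in nodose and 12.1, 14.7 and 18.6 CPM in arcuate. In nodose, log2 P2ry12 followed the log2 of this sum with Pearson r = 0.75 and Spearman rho = 0.90 (n = 24), r = 0.94 within Control and 0.67 within HepDKO, and r = 0.67 without the 2 libraries farthest from the median sum. Within groups r was 0.72. In arcuate r was -0.33 and rho -0.16, with r = 0.29 within groups, 0.11 within Control, -0.37 within HepDKO and -0.07 without the 2 farthest libraries. In nodose Tmem119 had r = 0.19 with the sum and r = 0.36 within groups, and Cx3cr1 r = -0.39 and -0.09. Of the 12 genes, 9 had r above 0.5 with P2ry12 within nodose groups, and 1 did with Tmem119. Because Ppbp led to the list, the values were also taken without it: P2ry12 then had r = 0.68 and rho = 0.84 with the sum of the other 11 genes, and 8 of 11 had r above 0.5, while Tmem119 had r = 0.22 and rho = 0.20. The 2 highest P2ry12 values in nodose, 16.7 CPM in Control ZT16 replicate 1 and 15.7 CPM in Control ZT10 replicate 1, were in the 2 libraries with the highest platelet sums, 238 and 203 CPM. The lowest, 1.78 CPM in HepDKO ZT22 replicate 3 (10 counts), was in a library with a sum of 77.1 CPM. How much of the nodose P2ry12 came from platelets was not tested. With Tmem119 alone as the divisor, the median log2 ratio of Mrc1 and Cd163 to it was -0.82 in arcuate and 4.03 in nodose. Whether nodose Tmem119 came from microglia was not tested. Its r within nodose groups was 0.04 with Cx3cr1 and -0.02 with P2ry12.

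**Figure D5:**
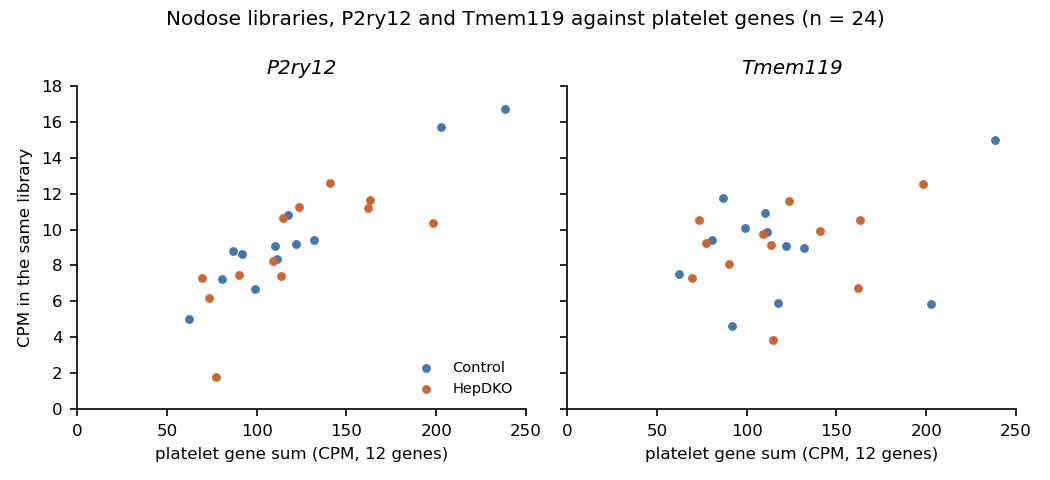
P2ry12 (left) and Tmem119 (right) in CPM against the summed CPM of 12 platelet genes in the 24 nodose libraries, coloured by genotype. P2ry12 climbs with the platelet sum (Pearson r = 0.75 of log2 values), Tmem119 shows no such order (r = 0.19), and 1 HepDKO library lies low at 1.78 CPM of P2ry12.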

How the data were processed

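RNA was sequenced from 24 arcuate and 24 left nodose libraries. The authors deposited raw counts per gene symbol. Per the submitters' processing notes, FastQC 0.11.7, Trim Galore 0.6.10, STAR 2.7.10b and mm10 were used; the counting tool, annotation and strand setting are not given in the sources used here. No count column lacked a sample (0 unmatched columns). CPM values are counts per 1000000 of a library's counts in genes past the filter, divided by TMM factors computed within each tissue (0.972 to 1.08 in arcuate, 0.832 to 1.18 in nodose). Levels set across tissues were thus normalized separately, and tissue differences come from the joint fit.

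Tests used edgeR 4.0.16 (limma 3.58.1, R 4.3.3): filterByExpr on groups, TMM factors, and a robust quasi-likelihood fit with 1 mean per group, within each tissue (16102 arcuate and 14867 nodose genes) and over both (17478). The 17 tests were Benjamini-Hochberg adjusted over all genes, with a threshold of 0.05. Intervals are 1.96 SE at 95%. Correlations used log2 CPM with a prior count of 2, except those with the platelet sum. These used log2 of the sum and log2 of the gene's CPM with a small constant added. Fits were tested on simulated data. DESeq2 1.42.0, other scalings, filters, covariates and left-out libraries were alternatives.

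Named genes were all 10, up to 4 called genes per list with the largest differences, and the 5 most like P2ry12 and Mrc1; single list genes beyond these were chosen after their values were seen, and some list genes are not reported here. Members and lists were chosen with earlier results of these data known. No replicate pair was a duplicate (smallest chi-square per degree of freedom 2.89 in arcuate and 8.12 in nodose).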

Additional observations from a re-analysis of the deposited data

Results flagged for a closer look

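The 24-h pattern of Cx3cr1 differed between the tissues by a test of the difference itself: the amplitude of the difference was 0.47 on the log2 scale (edgeR adjusted p = 0.0101), from 0.54 in nodose and 0.07 in arcuate. Over the 7 alternatives it ran from 0.47 to 0.50 with adjusted p from 0.000359 to 0.0335, and over the 48 fits that left out 1 library from 0.40 to 0.52 with adjusted p up to 0.0212.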

How the results depend on the processing

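Tissue calls of the 10 genes (9, 6 higher and 3 lower in nodose) were the same under DESeq2, RLE factors, total count scaling, no low count filter, the replicate block and voom tissue weights. The nodose Cx3cr1 rhythm passed under all 7 alternatives (amplitude 0.41 to 0.54, adjusted p 4.97e-05 to 0.0474) and without any 1 library (0.47 to 0.58, adjusted p up to 0.0184). With the replicate block it was 0.53 (adjusted p = 0.0123), and the block changed no call of the 10 genes. The labels do not say what a replicate number shares. Deviations of same-numbered libraries had a median correlation of 0.030 in arcuate (0 of 12 pairs over 0.1) and 0.14 in nodose (7 of 12), against -0.0044 (2 of 24) and -0.071 (6 of 24) for libraries with different numbers. With group means removed, the values for different numbers tend to the opposite sign and are no independent reference. Whether same-numbered nodose libraries share a batch was not tested. The main fits did not take the numbers as pairs, and the replicate block gives the fit that uses them. For the tissue difference in rhythm, DESeq2 called 2 of the 10 genes, adding Tmem119 (adjusted p = 0.0246), and leaving out 1 library gave 1 to 2: Tmem119 passed without nodose HepDKO ZT10 replicate 2 (adjusted p = 0.0455) or Control ZT10 replicate 3 (0.0357). Leaving out 1 arcuate library gave 0 to 1 calls for the arcuate rhythm (C1qb). The log2 ratio with Cx3cr1 in the divisor was -3.17 in arcuate and 2.18 in nodose, and with Tmem119 alone as the divisor, chosen after seeing the data, -0.82 and 4.03.

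Values that changed sign had not passed in any setting. Under DESeq2 and RLE factors the arcuate Cx3cr1 genotype difference was -8.46e-05 and -5.95e-05. Under total count scaling the nodose genotype differences of Cx3cr1 and Tmem119 were -0.012 and -0.014, the tissue difference of Aif1 -0.13, and the tissue differences in genotype effect of Cx3cr1 and Cd68 -0.0088 and -0.016; with voom tissue weights that of P2ry12 was -0.017. Without 1 library each, genotype differences spanned -0.024 to 0.024 (Cx3cr1) and -0.048 to 0.0039 (C1qb) in arcuate. In nodose they spanned -0.040 to 0.14 (Aif1), -0.099 to 0.069 (Cd68), -0.055 to 0.053 (Csf1r), -0.0068 to 0.15 (Cx3cr1), -0.086 to 0.0043 (Mrc1), -0.26 to 0.024 (P2ry12) and -0.054 to 0.10 (Tmem119). The tissue difference in genotype effect spanned -0.10 to 0.0081 (C1qb), -0.038 to 0.12 (Cd68), -0.0086 to 0.14 (Cx3cr1) and -0.15 to 0.14 (P2ry12). The cause of each change was not tested.

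Over all genes, DESeq2 called 1075 and 383 genes for the arcuate and nodose rhythms (edgeR 622 and 198), 455 for the tissue difference in rhythm (169), and 23, 5, 3, 1 and 13 where edgeR called 0 (arcuate genotype over all times and at ZT4, nodose genotype over all times, arcuate genotype difference in rhythm, tissue difference in genotype effect). Fits to only the arcuate ZT10 libraries called 4 genes, and total count scaling and the additive model 1 each for the arcuate genotype effect. Leaving out 1 library gave 277 to 1013 arcuate and 124 to 276 nodose rhythm calls. The nodose depth, down to 1813994 counts, limits the genes with few counts: 4 to 30 for Aif1, 10 to 123 for Cd68, 12 to 124 for Tmem119 and 10 to 138 for P2ry12.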

Other observations

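The following genes passed the filter on low counts only through nodose and are given as levels, with no test of a difference. Of the B cell genes, Ms4a1 was at medians of 0 CPM in arcuate and 3.05 CPM in nodose, and Cd79b at 0.118 and 3.80 CPM. The mast cell proteases Mcpt4, Cma1 and Tpsb2 were at medians of 0 in arcuate and at 31.5, 12.8 and 15.5 CPM in nodose. Separately, Hba-a1, Hba-a2, Hbb-bs and Hbb-bt are listed at 0 in all 48 libraries, while Alas2, the haem synthesis gene of red cell precursors, was at medians of 2.07 CPM in arcuate and 359 CPM in nodose, so the globin genes cannot serve as a measure of blood here.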
